A study of Mus musculus with 4 samples.

Results

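The genes described here are 10 genes of major histocompatibility complex (MHC) class I antigen presentation, chosen by symbol from the 55403 features of the deposited count matrices: H2-D1, H2-K1, B2m, Tap1, Tap2, Tapbp, Psmb8, Psmb9, Nlrc5 and Erap1. They were followed across the nuclei of the hippocampus in mice of 3 genotypes, as unique molecular identifiers (UMIs, which count captured RNA molecules) in 4 droplet libraries of single nuclei. WT mice (1 library) were the reference. PS19 mice (2 libraries), a line named PS19Vle/J with a B6;C3 background, carry Tg(Prnp-MAPT*P301S), a mutant human tau of the 1N4R form under the prion protein (Prnp) promoter. TG_PS19 mice (1 library) carry the same tau transgene and a SORLA-Rosa26 transgene, which overexpresses the sorting receptor SORLA from a CMV/β-actin promoter and therefore not from the promoter of SORLA itself. Animals were littermates from crosses of these lines, their frozen tissue was pooled by group before nuclei were released, and the title of the series calls the mice aged. The number of animals, their exact age and their sex, and whether both PS19 libraries were made from 1 pool of tissue, are not given in the sources used here. WT and TG_PS19 were each measured in 1 library, so no spread between samples of those groups was measured, and p-values rest on the spread of the PS19 pair, which may be technical.

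MHC class I molecules show peptides from inside a cell to CD8 T cells and to receptors of natural killer cells. A heavy chain, encoded in mice of the b haplotype by H2-D1 and H2-K1, pairs with the light chain β2-microglobulin (B2m). Peptides are cut by the proteasome, whose inducible catalytic subunits are Psmb8 and Psmb9, pumped into the endoplasmic reticulum by the transporter Tap1 and Tap2, trimmed there by the aminopeptidase Erap1, and loaded onto the heavy chain with the help of tapasin (Tapbp). Nlrc5 is the transactivator of class I genes and works with factors bound at a conserved stretch of their promoters. In the brain, class I is known to be expressed by blood vessels and to be low in resting glia and neurons, and interferons are among its main inducers.

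The heavy chain genes lie at opposite ends of the mouse MHC: H2-D1 at chr17:35262730-35267499 on the plus strand and H2-K1 at chr17:33996017-34000347 on the minus strand (GRCm38, GENCODE M21). Psmb9, Tap1, Psmb8 and Tap2 are neighbours between them, Tapbp also lies on chromosome 17, and B2m (chr2:122147686-122153083), Erap1 (chr13:74639568-74693201) and Nlrc5 (chr8:94434356-94527272) lie elsewhere. RefSeq promoter windows of GRCm38.p6 were matched for 8 of the 10 genes. The 250 bases before the start of H2-K1 (chr17:34000348-34000597, minus strand) and of B2m (chr2:122147437-122147686, plus strand) are shown because they hold the elements through which class I genes are known to be switched on. Capitals mark 5 motifs. Those of the interferon response type were GAANNGAAA, which reads TTTCACTTC on the other strand in H2-K1, and GAAANNGAA. That of the NF-κB type was GGGATTCCC. The others were TGACG, the core of a cyclic AMP response element, and the Y box core CCAAT, which reads ATTGG on the other strand. Both strands were searched, the marked motifs do not overlap, and the motifs were chosen with the sequences in view.
H2-K1: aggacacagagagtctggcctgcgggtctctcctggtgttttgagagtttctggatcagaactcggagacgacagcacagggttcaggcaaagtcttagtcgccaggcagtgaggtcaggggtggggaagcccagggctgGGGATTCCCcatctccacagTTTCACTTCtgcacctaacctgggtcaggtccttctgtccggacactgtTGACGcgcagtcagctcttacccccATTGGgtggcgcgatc
B2m: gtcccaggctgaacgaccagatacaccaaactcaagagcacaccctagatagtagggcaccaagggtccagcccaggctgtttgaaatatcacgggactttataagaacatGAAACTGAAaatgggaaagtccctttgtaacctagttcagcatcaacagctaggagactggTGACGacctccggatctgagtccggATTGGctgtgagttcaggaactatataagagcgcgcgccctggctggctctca

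For H2-D1, whose window GENCODE M21 counts as first exon, only the stretch spanned by each pair of motifs is shown, beside the same stretch of the other genes. The first pair, at chr17:35262924-35262952 in H2-D1 and chr17:34000429-34000457 in H2-K1, joins GGGATTCCC to TTTCACTTC.
H2-D1: GGGATTCCCcatctcctcagTTTCACTTC
H2-K1: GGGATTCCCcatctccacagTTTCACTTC

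The second pair sets TGACG and ATTGG 25 bases apart, start to start, at chr17:35262993-35263022, chr17:34000359-34000388 and chr2:122147609-122147638.
H2-D1: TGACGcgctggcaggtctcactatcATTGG
H2-K1: TGACGcgcagtcagctcttacccccATTGG
B2m: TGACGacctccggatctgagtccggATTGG

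This spaced pair was found in the windows of H2-D1, H2-K1 and B2m, and in no other of the 8 matched genes. It occurred in 30 of all 32851 promoter windows of the same length (0.0913%). GGGATTCCC occurred in 0.301% of these windows and GAANNGAAA in 6.31%. GAAANNGAA, found in B2m and Erap1, occurred in 7.13%. The short motifs are common, TGACG at 17.8% and the CCAAT box at 33.8%. The windows of H2-D1 and H2-K1 aligned over 177 columns with 161 identical bases (91.0%). A match describes letters only and does not show that a factor binds there.

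The libraries held 4643 to 12762 barcodes and 20064025 to 48670533 UMIs, with a median of 2643 to 3708.5 UMIs per barcode, and 4474 to 11482 nuclei per library were kept. Any pair of libraries shared 5 to 32 barcodes. The human tau transcript was counted at 0 UMIs in WT, at 17.8 and 18.7 CPM (UMIs of the gene per 1000000 UMIs) in the PS19 libraries and at 12.9 CPM in TG_PS19. Human SORL1 stood at 65.2 CPM in TG_PS19 against 0.0491 CPM in WT and 0.371 and 0 CPM in PS19, so both transgenes followed the labels. The TG_PS19 library stood apart in the sex of its nuclei: 4558 of its 8985 kept nuclei (50.7%) were called female by Xist and 2181 male by Y-linked genes, while at most 0.235% of nuclei in the other libraries were called female. Genotype and this difference in sex cannot be told apart in the whole TG_PS19 library. Levels of the heavy chains in glia and the number of calls kept are therefore also given for its nuclei called male. Of kept TG_PS19 nuclei, 7.50% were in clusters that stayed unnamed, against 3.62% in WT and 0.603% and 0.782% in PS19.

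Nuclei were grouped into clusters without the 10 genes, and clusters were named by resemblance to marker lists. There were 11 classes with at least 50 nuclei in every library: microglia, astrocytes, oligodendrocytes, oligodendrocyte precursors, endothelial cells, mural cells, fibroblasts, dentate granule neurons, inhibitory neurons, Cajal-Retzius neurons and the remaining excitatory neurons, which were pooled after the clusters had been seen. A level below is the CPM of a gene among all UMIs of the class, and its 95% Poisson interval covers counting error only. Levels were compared for 1 gene between classes and libraries, not between genes.

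H2-D1 and H2-K1 were highest in endothelial cells, which line the vessels. H2-D1 was highest in endothelial cells in all 4 libraries, at 527 CPM in WT, 803 and 526 in PS19 and 572 in TG_PS19. Microglia came second by the mean of the 4 libraries (299 CPM), followed by mural cells (134), fibroblasts (133), oligodendrocyte precursors (71.9), Cajal-Retzius neurons (59.4), astrocytes (52.5), oligodendrocytes (49.8), inhibitory neurons (18.3), other excitatory neurons (14.7) and dentate granule neurons (8.56). The ranges over libraries of neighbours in this order overlapped in 10 of 10 cases, so no step between neighbours exceeded its spread. The place of microglia depended on genotype: they ranked 4th in WT and in TG_PS19 and 2nd in both PS19 libraries. H2-K1 followed the same leading order, with endothelial cells at a mean of 279 CPM (209 to 375), microglia at 122 (36.0 to 235) and dentate granule neurons at or under 5.08 CPM in every library.

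Microglia led for the light chain, and microglia and endothelial cells led together for the inducible proteasome subunits. B2m was highest in microglia in all 4 libraries (mean 144 CPM, range 93.0 to 196), then in endothelial cells (104, range 76.6 to 125). Below these, its levels stepped down to mural cells (38.7 CPM, range 36.0 to 42.0) without overlap. Psmb8, an inducible proteasome subunit, was also led by microglia (24.97 CPM) and endothelial cells (17.6 CPM), and neither range overlapped that of the next class, fibroblasts (3.78 to 5.63 CPM). Psmb9 had the same leading pair, at 13.5 CPM in endothelial cells and 12.7 CPM in microglia. Both genes were close to the limit of counting elsewhere: Psmb9 had 0 UMIs in inhibitory neurons of all libraries and Psmb8 had 0 in Cajal-Retzius neurons.

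Erap1 was led by microglia (58.8 CPM) and endothelial cells (54.4 CPM), and Tapbp by endothelial cells (67.9 CPM), microglia (58.3) and fibroblasts (49.7). The transporter subunits differed in where they were seen. Tap2 was spread over endothelial cells (61.1 CPM), mural cells (43.5), fibroblasts (43.1), astrocytes (33.1) and microglia (31.2), with overlapping ranges. Tap1 did not exceed 29.8 CPM in any class and library. Nlrc5 was highest in endothelial cells in all 4 libraries (49.7 CPM, range 32.8 to 62.4), and its range in microglia ran from 3.03 to 59.2 CPM. The plot of levels by class and library shows these orders for H2-D1, H2-K1, B2m and Nlrc5.

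**Figure D1:**
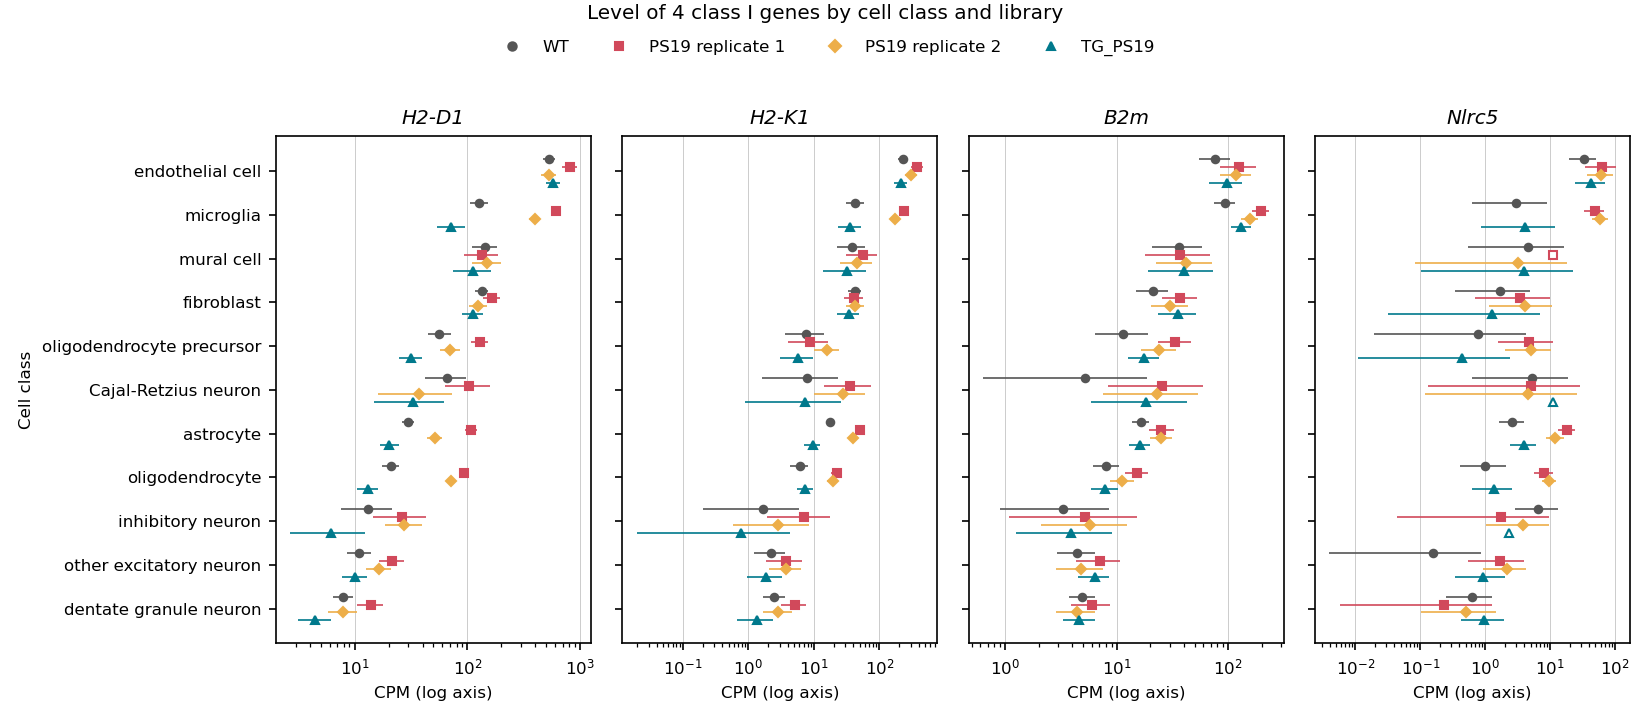
Levels of H2-D1, H2-K1, B2m and Nlrc5 (x axis, CPM, log scale) in 11 cell classes (y axis) and 4 libraries (points). Bars are 95% Poisson intervals and an open marker stands for 0 UMIs, drawn at the level of 3 counts. The PS19 points of H2-D1 in microglia (603 and 394 CPM) lie above WT (126) and TG_PS19 (71.9), while the 4 endothelial points lie between 526 and 803.

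The comparison of PS19 with WT asks what goes with the tau transgene. In PS19 the classical heavy chains H2-D1 and H2-K1 and the transactivator Nlrc5 were higher in microglia, oligodendrocytes and astrocytes, B2m was higher in microglia, and Tap2 was higher in astrocytes. Across the 11 classes 65 pairs of gene and class passed the low-count filter of the test (edgeR's quasi-likelihood test, Benjamini-Hochberg adjusted p under 0.05 within a class), and 11 were called, all of them higher in PS19. That is 16.9% of pairs, against 3.08% of all gene and class pairs called in either direction and 1.51% called higher. A gene that is high in 1 group only can pass the filter through that group. The median log2 fold change over the 65 pairs was 0.53 and over all pairs tested 0.0065. DESeq2 on the same counts called 4 of the pairs, H2-D1 and H2-K1 in microglia and oligodendrocytes. Genes of the set reached the test in between 1 class (Psmb9) and 11 classes (H2-D1).

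In microglia, the resident macrophages of the brain, 4 of 10 genes were called, against 4.34% of all microglial genes called higher. H2-D1 stood at 126 CPM in WT, 603 and 394 in the PS19 pair and 71.9 in TG_PS19. The PS19 libraries lay above both others without overlap, and PS19 exceeded WT by 1.96 ± 0.19 (log2, SE; edgeR adjusted p = 2.92e-23). In counts of nuclei, 17.1% of WT microglia had at least 1 H2-D1 UMI, against 67.1% and 58.6% in PS19 and 11.2% in TG_PS19. PS19 nuclei were deeper, with medians of 2215 and 2599 UMIs against 1605 in WT and 1642.5 in TG_PS19. After thinning each nucleus to 1000 UMIs the shares were 11.7% in WT, 41.5% and 35.2% in PS19 and 8.12% in TG_PS19, and the order was kept. In dentate granule neurons, which hold little H2-D1, 5.49%, 11.4%, 7.88% and 3.53% of nuclei had a UMI at medians of 6472 to 10151 UMIs, which thinned to at most 0.933%.

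H2-K1, the other heavy chain, gave 42.4 CPM in WT microglia, 235 and 174 CPM in the PS19 pair and 36.0 in TG_PS19. Its PS19 values were again above both others, 2.25 ± 0.25 over WT on the log2 scale (edgeR adjusted p = 4.41e-16). B2m gave 93.0 CPM in WT, 196 and 157 in the PS19 pair and 131 in TG_PS19. The PS19 values of the light chain were the highest, but the step over WT was smaller, at 0.91 ± 0.22 (edgeR adjusted p = 8.33e-04).

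Nlrc5 was close to the limit of counting outside PS19 microglia: 3 UMIs in WT (3.03 CPM) and 3 in TG_PS19 (4.15 CPM), against 31 and 48 UMIs in PS19 (48.6 and 59.2 CPM). The 95% intervals of the PS19 libraries (33.1 to 69.0 and 43.7 to 78.5 CPM) did not meet that of WT (0.625 to 8.86 CPM), and the fitted difference was 4.09 ± 0.57 (log2; edgeR adjusted p = 1.11e-10). With 3 UMIs in the reference the size of this fold is loosely set. The genes that supply and load peptides did not pass the test in microglia. Tap1 had 5 UMIs in WT, 19 and 6 in PS19 and 6 in TG_PS19, and its excess rested on PS19 replicate 1 (29.8 CPM against 7.41 CPM in replicate 2). Psmb8 (21.2 CPM in WT, 39.2 and 28.4 in PS19) differed by 0.65 ± 0.42 and Erap1 by 0.53 ± 0.31, with edgeR adjusted p = 0.468 and 0.386. Tapbp (68.7 CPM in WT, 62.8 and 62.9 in PS19) and Tap2 (38.4 CPM in WT, 33.0 and 27.2 in PS19) were not higher in either PS19 library.

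In oligodendrocytes, the myelinating glia, 3 of 7 genes were called, against 2.83% of all genes of the class called higher. H2-D1 gave 20.9 CPM in WT, 93.4 and 71.8 in the PS19 pair and 13.2 in TG_PS19. The PS19 libraries did not overlap the others, and the difference from WT was 2.01 ± 0.16 (log2; edgeR adjusted p = 2.94e-31). H2-K1 gave 6.06 CPM in WT, 22.4 and 19.3 in the PS19 pair and 7.35 in TG_PS19, a difference of 1.81 ± 0.26 (edgeR adjusted p = 6.04e-10). Nlrc5 gave 1.01 CPM in WT (7 UMIs), 8.07 and 9.74 CPM in PS19 (39 and 59 UMIs) and 1.35 CPM in TG_PS19 (9 UMIs). This was a difference of 3.16 ± 0.49 between PS19 and WT (edgeR adjusted p = 2.03e-08). B2m, at 8.08 CPM in WT and 15.1 and 11.2 CPM in PS19, was higher in both PS19 libraries and missed the threshold (0.73 ± 0.27, edgeR adjusted p = 0.0849).

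In astrocytes each of the 9 genes tested had both PS19 levels above WT and TG_PS19, and 4 were called, against 3.23% of all astrocyte genes called higher. Over all classes 22.5% of tested gene and class pairs had both PS19 libraries above the other libraries, and in astrocytes 28.9% did. H2-D1 gave 29.8 CPM in WT, 108 and 51.4 in the PS19 pair and 20.4 in TG_PS19. The PS19 libraries were both higher but far apart, and the difference of 1.36 ± 0.17 (log2; edgeR adjusted p = 6.89e-13) became 0.78 without replicate 1 and 1.83 without replicate 2. H2-K1 was steadier, at 17.9 CPM in WT, 50.8 and 39.9 in the PS19 pair and 9.52 in TG_PS19 (1.31 ± 0.20, edgeR adjusted p = 2.32e-08). Nlrc5 gave 2.60 CPM in WT, 18.2 and 12.1 in the PS19 pair and 3.92 in TG_PS19, a difference of 2.48 ± 0.37 (edgeR adjusted p = 4.50e-09).

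Tap2 was the called gene of peptide transport. Its astrocyte levels were 28.1 CPM in WT, 50.01 and 39.6 in the PS19 pair and 14.8 in TG_PS19. PS19 lay above WT by 0.64 ± 0.19 (edgeR adjusted p = 0.0155). The call was lost with DESeq2 (0.65), with no filter on low counts (0.59) and with thinned nuclei (0.60), and thinning also ended the astrocyte call of Nlrc5 (3.08). In microglia, oligodendrocyte precursors and fibroblasts the Tap2 difference was below 0 and not called. B2m (16.5 CPM in WT, 25.2 and 25.1 in PS19), Erap1 (18.0, then 23.6 and 28.7), Tapbp (17.2, then 19.8 and 21.8) and Tap1 (5.80, then 7.85 and 9.37) were higher in both PS19 libraries with edgeR adjusted p from 0.122 to 0.687.

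Outside these 3 glial classes no gene of the set was called against WT, and in endothelial cells 1.03% of all genes were. In endothelial cells, where H2-D1, H2-K1 and Nlrc5 were highest, H2-D1 differed by 0.34 ± 0.22 (log2; edgeR adjusted p = 0.863), H2-K1 by 0.58 ± 0.26 (0.558) and Nlrc5 by 0.92 ± 0.46 (0.670). H2-K1 was 228 CPM in WT endothelial cells, 375 and 302 CPM in the PS19 pair and 209 in TG_PS19, so the PS19 values were the highest there too. Whether the response differs between endothelial cells and glia was not tested. In oligodendrocyte precursors H2-D1 gave 56.5 CPM in WT, 129 and 70.5 in the PS19 pair and 31.6 in TG_PS19 (0.81 ± 0.23, edgeR adjusted p = 0.0692). The neuron classes differed. In dentate granule neurons H2-D1 was low, at 7.94 CPM in WT, 13.9 and 7.92 in the PS19 pair and 4.50 in TG_PS19, and WT lay within the PS19 range. In inhibitory and other excitatory neurons both PS19 libraries lay above WT and TG_PS19 without a call (1.03 ± 0.48 and 0.72 ± 0.25, edgeR adjusted p = 0.690 and 0.225). Cajal-Retzius neurons had 65.3 CPM in WT, a mean of 69.8 in PS19 and 32.8 in TG_PS19 (0.08 ± 0.46 for PS19 against WT, not called). By level alone, both PS19 libraries exceeded WT and TG_PS19 in 10 of 11 classes for H2-K1, in 7 for B2m and for Nlrc5 and in 6 for H2-D1. The counts were 5 for Psmb8 and Tap2, 4 for Tap1 and Tapbp and 2 for Psmb9 and Erap1. They include classes near the limit of counting, such as inhibitory neurons with 10 H2-K1 UMIs in total. Among pairs that passed the filter this order held for 37 of 65, against 22.5% of all tested pairs.

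**Figure D2:**
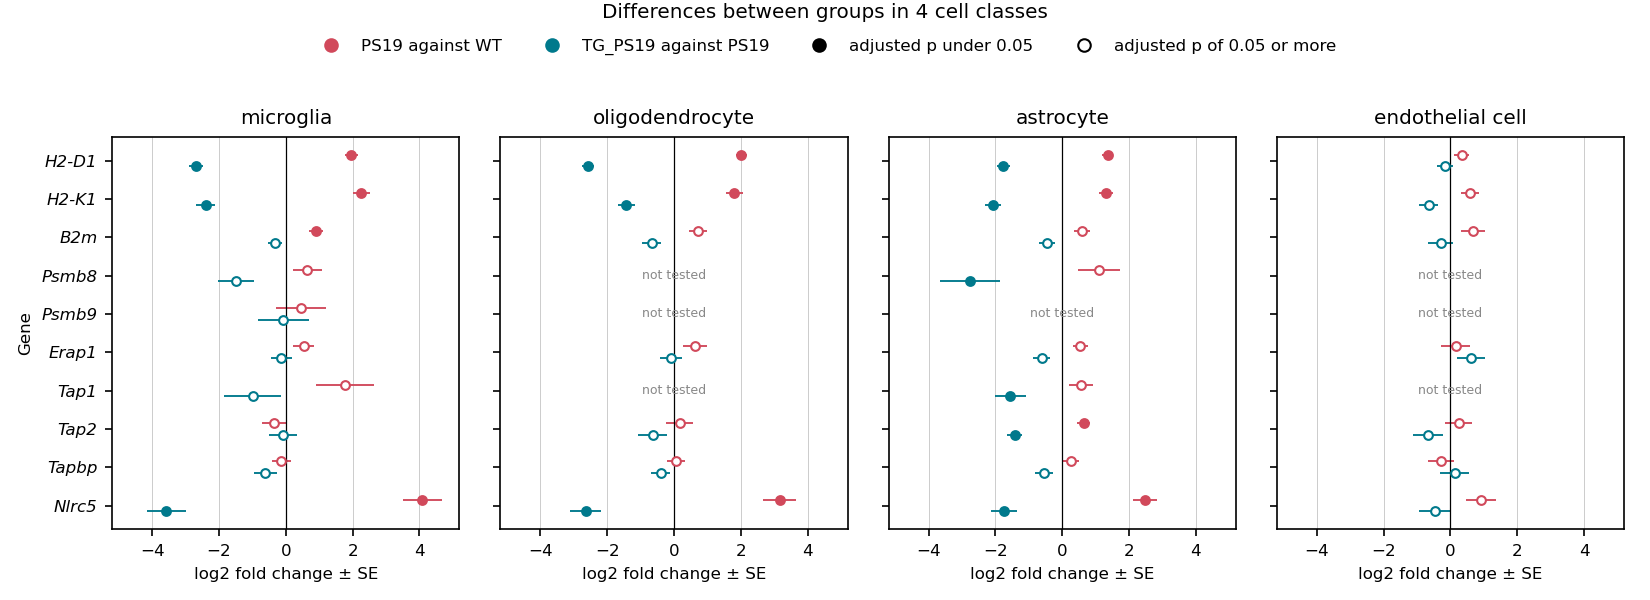
Log2 fold changes (points) with standard errors (bars) of the 10 genes in microglia, oligodendrocytes, astrocytes and endothelial cells, for PS19 against WT and TG_PS19 against PS19. Filled points passed an adjusted p of 0.05. H2-D1, H2-K1 and Nlrc5 are filled in both comparisons in the 3 glial classes, and no point is filled in endothelial cells.

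Setting TG_PS19 against PS19 compares tau mice with and without the SORLA transgene. The TG_PS19 library also differed in the sex of its nuclei and in human tau RNA (12.9 CPM against 17.8 and 18.7). In the whole library these differences cannot be told apart from the SORLA transgene. In TG_PS19 the heavy chains and Nlrc5 were lower in microglia, oligodendrocytes and astrocytes, and in astrocytes the peptide genes Tap1, Tap2 and Psmb8 were lower as well. Of the 65 pairs 16 were called (24.6%), all lower in TG_PS19, against 5.19% of all pairs called in either direction and 1.83% called lower. The median log2 fold change was -0.61 over the pairs and -0.012 over all pairs tested. This comparison shares its PS19 libraries with the previous one, so a fall after a rise is in part the same measurement. DESeq2 called 5 pairs, while 5 others had no adjusted p from it, and its folds stayed near those of edgeR (-3.62 against -3.58 for Nlrc5 in microglia). After thinning each nucleus to 1000 UMIs 8 were called and 4 were not tested.

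H2-D1 was called in 6 classes. The fold changes were -2.69 ± 0.22 in microglia, -2.57 ± 0.18 in oligodendrocytes, -2.02 ± 0.56 in inhibitory neurons, -1.76 ± 0.19 in astrocytes, -1.54 ± 0.23 in oligodendrocyte precursors and -1.13 ± 0.31 in dentate granule neurons (log2 ± SE; edgeR adjusted p from 4.97e-43 in oligodendrocytes to 0.0192 in inhibitory neurons). The inhibitory neurons rest on few molecules, with 16 H2-D1 UMIs in WT, 15 and 29 in PS19 and 8 in TG_PS19. H2-K1 fell by 2.40 ± 0.28 in microglia, by 2.07 ± 0.25 in astrocytes and by 1.43 ± 0.25 in oligodendrocytes. Its largest edgeR adjusted p of these was 1.50e-06.

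Nlrc5 fell by 3.58 ± 0.59 in microglia, by 2.65 ± 0.47 in oligodendrocytes and by 1.74 ± 0.38 in astrocytes (edgeR adjusted p from 1.50e-07 to 1.80e-04). With nuclei thinned to 1000 UMIs the calls of Nlrc5 in microglia (-2.53) and astrocytes (-2.21), of Tap1 in astrocytes (-2.03) and of H2-K1 in oligodendrocytes (-0.78) were lost. In astrocytes Tap1, a subunit of the peptide pump, was 2.61 CPM in TG_PS19 (14 UMIs) against 7.85 and 9.37 CPM in PS19 (19 and 31 UMIs), a difference of -1.56 ± 0.46. Tap2 differed there by -1.42 ± 0.22, and also in oligodendrocyte precursors (10.5 CPM against 28.9 and 25.4 in PS19 and 29.8 in WT; -1.27 ± 0.36, edgeR adjusted p = 0.0278). Psmb8 had 3 astrocyte UMIs in TG_PS19 against 14 and 11 in PS19 and 17 in WT, so its fitted -2.76 ± 0.89 is loosely set.

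The light chain stood apart from the heavy chains here. B2m in TG_PS19 microglia was 131 CPM, between WT (93.0) and the PS19 libraries (196 and 157), and differed from PS19 by -0.33 ± 0.22 (log2; edgeR adjusted p = 0.460). B2m was called in none of its 9 classes in this comparison. Endothelial H2-D1 (-0.16 ± 0.23, edgeR adjusted p = 0.981) and Nlrc5 (-0.47 ± 0.48, 0.961) were not called either.

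Among TG_PS19 nuclei called male, as nearly all called nuclei of the other libraries were, H2-D1 was 62.0 CPM in microglia, 17.03 in oligodendrocytes and 20.4 in astrocytes. Among those called female it was 67.3, 11.8 and 18.0 CPM. Both lay below each PS19 library in these classes. H2-K1 was 62.0 CPM in male and 26.4 CPM in female microglia (9 and 11 UMIs), with overlapping 95% intervals, against 42.4 CPM in WT. It was 7.23 and 6.27 CPM in oligodendrocytes and 9.90 and 8.47 CPM in astrocytes. Nlrc5 had 0 UMIs in the 79 male microglia and 3 in the 233 female ones. With the male nuclei alone 11 of the 16 calls were kept, and 5 were lost. H2-D1 in inhibitory neurons shrank to -0.86. The others kept folds near the full ones, with Nlrc5 at -1.43, Psmb8 at -2.63 and Tap1 at -1.66 in astrocytes and Tap2 at -1.11 in oligodendrocyte precursors. Endothelial H2-D1 was 377 CPM in the 33 male nuclei and 738 CPM in the 108 female ones, with 95% intervals (227 to 588 and 618 to 874) that did not meet. The cause of this difference was not tested.

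Between TG_PS19 and WT 1 of 65 pairs was called, Tap2 in astrocytes (-0.78 ± 0.24, edgeR adjusted p = 0.0497), which is 1.54% of pairs against 2.35% of all pairs called. At an unadjusted p under 0.05 there were 12 pairs, and the share of all pairs at that threshold was not counted. A lone library stood on either side, so no spread of these groups entered, and the call was lost under 8 of the alternatives tried. B2m was higher in TG_PS19 than in WT in 9 of 9 classes tested, by 0.03 to 0.80 on the log2 scale, and H2-D1 was lower in 10 of 11 classes, with no call for either.

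Within microglia the clusters divided by genotype. Cluster 14 had 16 of 16 genes of the disease-associated microglia list above the other microglial cluster, and 8 of them met the rule for a raised marker. This state is known from mouse models of neurodegeneration. The cluster comprised 18 WT, 177 and 210 PS19 and 9 TG_PS19 nuclei. The genes that define it differ between the groups, so its size is given only as the depth behind its values. The remaining microglia, cluster 7, comprised 567 WT, 78 and 75 PS19 and 401 TG_PS19 nuclei.

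The heavy chains were higher in PS19 within cluster 7 as well. H2-D1 gave 121 CPM in WT, 572 and 294 in the PS19 pair and 70.9 in TG_PS19. A fit on this cluster alone called H2-D1 in PS19 against WT (1.80 ± 0.28, edgeR adjusted p = 4.69e-07) and in TG_PS19 against PS19 (-2.50 ± 0.31, 4.32e-12). H2-K1 gave 41.1, 195, 94.3 and 36.9 CPM in the same order of libraries and was called in both (1.77 ± 0.42 and -1.85 ± 0.44, edgeR adjusted p = 0.00814 and 0.00698). In this cluster 0.59% and 0.764% of genes were called in the 2 comparisons.

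B2m and Nlrc5 gave no call in cluster 7. B2m in cluster 7 was 92.8 CPM in WT, 151 and 116 in the PS19 pair and 129 in TG_PS19, and was not called (0.50 ± 0.36, edgeR adjusted p = 1.00). Nlrc5 had 3 UMIs in WT (3.16 CPM), 3 and 2 in PS19 (18.9 and 11.1 CPM) and 2 in TG_PS19 (2.84 CPM). Its PS19 levels were the highest, with overlapping 95% intervals and too few UMIs to be tested. Its PS19 molecules sat in cluster 14, which held 28 of 31 and 46 of 48 Nlrc5 UMIs of the PS19 microglia. For H2-D1 that cluster held 293 of 384 and 266 of 319 UMIs (76.3% and 83.4%). It held 69.4% and 73.7% of the PS19 microglial nuclei, so the H2-D1 shares lay near its share of nuclei. In cluster 14 itself H2-D1 was 613 and 422 CPM in PS19, 239 CPM in the 18 WT nuclei and 110 CPM in the 9 TG_PS19 nuclei (2 UMIs), and H2-K1 was 249 and 197 CPM in PS19. The 95% interval of WT H2-D1 (115 to 440 CPM) overlapped that of PS19 replicate 2 there.

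**Figure D3:**
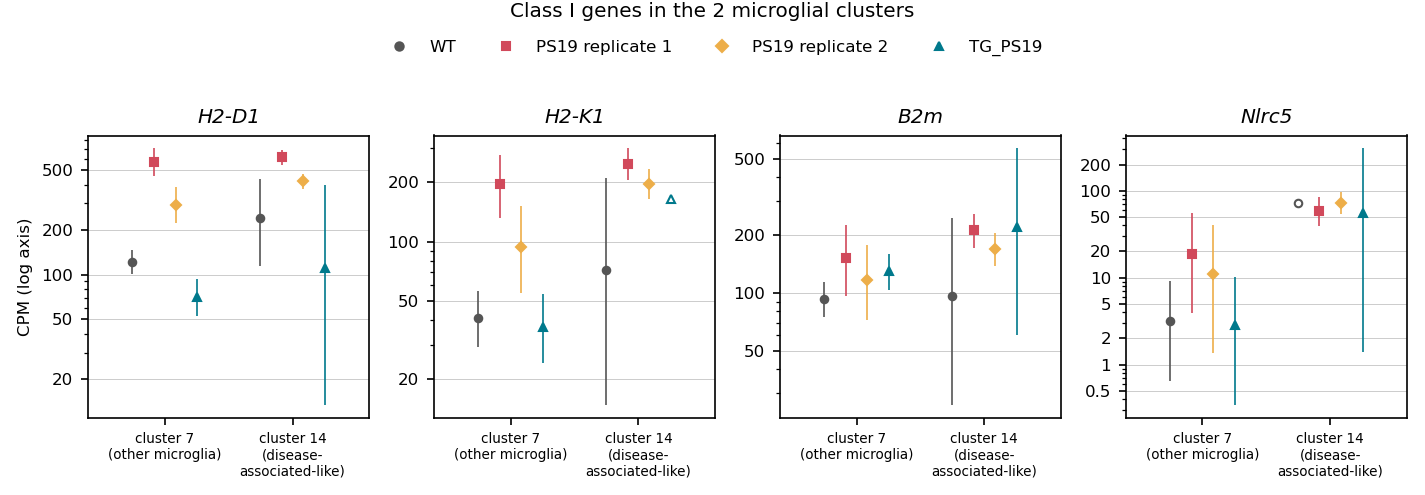
Levels (y axis, CPM, log scale) of H2-D1, H2-K1, B2m and Nlrc5 in microglial clusters 7 and 14 by library, with 95% Poisson intervals and open markers for 0 UMIs. In cluster 7 the PS19 points of H2-D1 (572 and 294 CPM) lie above WT (121) and TG_PS19 (70.9), and Nlrc5 has 2 or 3 UMIs in each library.

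Among PS19 microglia, the nuclei with a Nlrc5 UMI (30 and 35) had H2-D1 at 816 and 535 CPM, and those without at 567 and 371 CPM. The former nuclei were also deeper, with medians of 2697 and 3110 UMIs against 2136 and 2570.5. Both sets stood above the 126 CPM of WT microglia.

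Oligodendrocytes fell into 3 clusters. H2-D1 was 18.4, 62.1, 46.0 and 11.3 CPM in cluster 1 (WT, PS19 replicates 1 and 2, TG_PS19), 20.3, 130, 96.6 and 17.5 CPM in cluster 3 and 29.1, 109, 99.3 and 12.1 CPM in cluster 4. The PS19 libraries were the highest in each. Astrocytes fell into cluster 0, the bulk of the class, cluster 10, led by Myoc and Gfap, and the smaller cluster 20. Cluster 10 made up 8.46% of WT astrocytes, 27.8% and 24.7% of those in PS19 and 6.20% in TG_PS19, so the makeup of the class differed between the groups, and its part in the astrocyte differences was not tested. H2-D1 in cluster 10 was 81.6 CPM in WT, 227 and 108 in the PS19 pair and 82.3 in TG_PS19. In cluster 0 it was 23.3, 53.5, 27.1 and 16.2 CPM, so that PS19 replicate 2 stood close to WT there. In cluster 20 it was 63.4, 169, 94.4 and 24.4 CPM.

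C4b, a complement component, and Serpina3n, a protease inhibitor, mark a reactive state of glia and served to divide the nuclei. A UMI of either was present in 204 of 3342 WT oligodendrocytes, 831 of 1846 and 807 of 1877 PS19 oligodendrocytes and 159 of 3057 TG_PS19 oligodendrocytes. In oligodendrocytes with such a UMI H2-D1 was 26.6 CPM in WT, 131 and 105 in the PS19 pair and 16.3 in TG_PS19. In those without it was 20.5, 61.1, 45.6 and 13.02 CPM, so the PS19 excess was present in both sets and larger in level in the first.

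Nlrc5 was also higher in the PS19 nuclei with such a UMI. PS19 oligodendrocytes with a C4b or Serpina3n UMI had 14.8 and 14.9 CPM of Nlrc5 and those without had 2.31 and 5.62 CPM, against 4.43 and 0.772 CPM in WT. In PS19 astrocytes the values were 29.1 and 16.9 CPM with and 4.63 and 6.12 CPM without. TG_PS19 astrocytes with such a UMI had 12.3 CPM (95% interval 5.62 to 23.3), which overlapped PS19 replicate 2. Astrocyte H2-D1 in PS19 was 149 and 64.7 CPM with and 57.5 and 34.7 CPM without such a UMI, against 38.9 and 28.3 CPM in WT. Nuclei with such a UMI were deeper in PS19, with medians of 2500 against 2384 and 3135 against 2979.5 UMIs in oligodendrocytes and 3751.5 against 3529 and 4730.5 against 4192 in astrocytes.

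**Figure D4:**
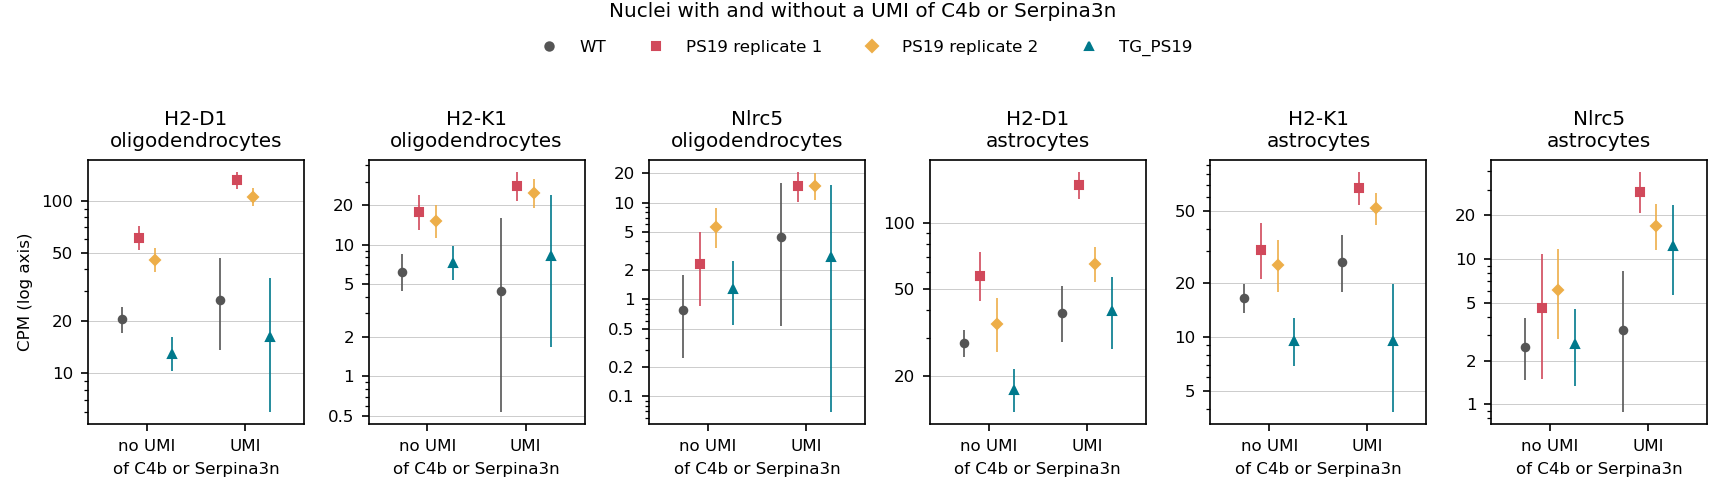
Levels (y axis, CPM, log scale) of H2-D1, H2-K1 and Nlrc5 in oligodendrocytes and astrocytes with and without a UMI of C4b or Serpina3n, by library, with 95% Poisson intervals. PS19 oligodendrocytes stand at 131 and 105 CPM of H2-D1 with such a UMI and at 61.1 and 45.6 CPM without.

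Markers of other cells were summed in the glial classes. In oligodendrocytes the 12 microglial markers summed to 325 CPM in WT, 237 and 181 in the PS19 pair and 247 in TG_PS19, with none at 0, and 5 of 12 were called lower in PS19 than in WT. In astrocytes they summed to 294, 244, 214 and 237 CPM. The summed microglial markers were below WT in both PS19 libraries in each class. Levels of these markers within the microglia of each group are not given here, and their sum need not follow the amount of microglial RNA. Whether microglial RNA had a part in the H2-D1 levels of these classes was not tested. In microglia the 10 T cell markers summed to 13.1 CPM in WT, 4.71 and 6.17 in the PS19 pair and 9.68 in TG_PS19, and 6 of them, Cd3e and Cd8a included, were at 0 in all libraries. The 10 endothelial markers summed to 119 CPM in WT microglia, 173 and 123 in the PS19 pair and 78.8 in TG_PS19. Of the 4 tested, 1 was called higher and 1 lower in PS19 than in WT, and 2 were called lower in TG_PS19 than in PS19. Their sum had the same order of libraries as H2-D1, which is highest in endothelial cells, but PS19 replicate 2 stood close to WT. The part of these markers in the result was not tested. The 6 markers of monocytes and neutrophils summed to 25.3, 20.4, 17.3 and 22.1 CPM. The 6 markers of perivascular macrophages summed to 13.1, 28.2, 21.0 and 1.38 CPM in microglia, higher in PS19 as H2-D1 was, with Cd163 and Lyve1 at 0 in all libraries, and their part in the result was not tested.

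The haplotype of the MHC bears on how H2-D1 and H2-K1 were counted, since both are highly variable between strains and the reference is of the b haplotype. H2-Ea, a class II gene that C57BL/6 mice do not express because its promoter is deleted, had 41 UMIs in WT, 56 and 55 in PS19 and 41 in TG_PS19. The ratio of H2-Ea to H2-Eb1 UMIs was 0.872, 1.10, 1.06 and 1.11. Every pool therefore held a haplotype with an active H2-Ea at least in part, and the effect on the capture of H2-D1 and H2-K1 reads was not tested. The heavy chains also share sequence with their relatives: 14.3% of 50-base windows of the longest H2-D1 transcript and 8.79% of those of H2-K1 recurred in another gene (H2-Q1, H2-Q7 and H2-Q6 for H2-D1), and 9.53% and 0.443% in the last 500 bases, where a 3′ kit reads. The gene that shared most windows with H2-K1 was H2-D1 itself. These shares set no bound on the error of a level, and how far shared sequence moved the levels of H2-D1 and H2-K1 was not tested. B2m, Erap1, Psmb8, Psmb9 and Nlrc5 shared none.

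The other genes of the pathway moved unevenly. Of 19 further class I heavy chains, 10 were tested, and H2-Q4 and H2-T23 were called higher in PS19 in both microglia and astrocytes. These were 4 of 47 pairs (8.51%, against 1.51% of all pairs called higher), and none was called lower. H2-Q4 microglial levels were 8.08 CPM in WT, 28.2 and 30.9 in the PS19 pair and 4.15 in TG_PS19. H2-T23, which encodes the Qa-1 molecule read by natural killer cell receptors, gave 18.2 CPM in WT, 59.6 and 37.0 in the PS19 pair and 38.7 in TG_PS19, so TG_PS19 lay within the PS19 range. H2-T24 was called higher in TG_PS19 than in PS19 in dentate granule neurons and other excitatory neurons (0.88 and 1.06).

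Among folding partners of class I in the endoplasmic reticulum, 6 of 61 pairs, from 3 of 6 genes, were called lower in PS19 than in WT and none higher, against 1.57% of all pairs called lower. They include the chaperone Hspa5 in oligodendrocytes (-0.67) and astrocytes (-0.69), the thiol oxidoreductase Pdia3 of the loading complex in microglia (-0.59) and calreticulin (Calr) in dentate granule neurons (-0.56). Of 63 pairs of constitutive and regulatory proteasome genes none was called in PS19 against WT or in TG_PS19 against PS19, with median log2 fold changes of -0.06 and -0.14.

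The factors Rfx5, Rfxap, Rfxank, Nfya, Nfyb and Nfyc, with which Nlrc5 works at class I promoters, were not called in PS19 against WT. Of 104 pairs of interferon-stimulated genes 22 were called higher in PS19 than in WT and none lower, a share of 21.2% against 1.51% of all pairs, and their median was 0.71. Microglia had 10 of 16 (4.34% of all microglial genes), astrocytes 10 of 19 (3.23%) and oligodendrocytes 1 of 10 (2.83%). Mx1, an antiviral effector, gave 2.02 CPM in WT microglia, 42.4 and 35.8 in PS19 and 2.77 in TG_PS19. In TG_PS19 against PS19 22 of 104 were called lower, against 1.83% of all pairs, and none higher.

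Among interferon ligands, receptors and their kinases 3 of 69 pairs were called in PS19 against WT (4.35%, near the 3.08% of all pairs). In microglia Ifngr1, a chain of the interferon gamma receptor, was called lower in PS19 (-0.68, and -0.59 in oligodendrocytes; 269 CPM in WT, 171 and 165 in PS19, 279 in TG_PS19), and the kinase Tyk2 was called higher (0.86). From a list of receptors for class I and related receptors 4 genes were tested, all in microglia. Lilrb4a, an inhibitory receptor, was called higher in PS19 (5.05 CPM in WT, 87.9 and 55.5 in PS19, 4.15 in TG_PS19). Klrd1 was called lower (34.4, 1.57, 3.70 and 31.8 CPM). Whether the product of Lilrb4a binds class I was not tested, and its change is not read as one of a class I receptor. Of all microglial genes 8.09% were called in either direction. Class II genes, which present peptides to CD4 T cells, were called higher in PS19 microglia in 4 of 7 cases, against 4.34% of all microglial genes. Cd74, the class II chaperone, gave 23.2 CPM in WT, 323 and 195 in PS19 and 5.53 in TG_PS19. The lists were chosen with results of these data known, so their counts describe these libraries and are no independent support.

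The genes most like the heavy chains were sought over 44 sums of class and library, among 11768 genes with a mean of at least 10 CPM. For H2-D1 they were Fcho2, Ppard, Khnyn, Trim25 and Gatad2a, with Pearson r from 0.906 to 0.892, and H2-K1 itself reached 0.944 and B2m 0.889. For H2-K1 they were Fcho2, Trim34a, Def6, Ifi35 and H2-T23 (0.929 to 0.910). For B2m they were Arhgef1, Wasf2, Clic1, Grk2 and Msn (0.946 to 0.925), a different set of 5. Sums of 1 library share its depth and those of 1 class its makeup, so these values are descriptions only. Among the 10 genes H2-D1 was least like Tap1 (0.770) and Psmb8 (0.785).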

How the data were processed

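Single-nucleus libraries (10x 3′ v3.1 kit) of pooled frozen hippocampus were deposited by the authors as matrices of raw UMI counts per gene and nucleus, made with Cell Ranger 7.1.0 on GRCm38, per the submitters' processing notes. From these counts, nuclei were kept from 500 UMIs and 300 genes upwards where mitochondrial UMIs did not exceed 5%. Doublets were called by a Scrublet-style score at 0.8% per 1000 nuclei and removed. The 2000 most variable genes without the 10 described here, 30 principal components, 15 neighbours and Leiden clustering (resolution 1, leidenalg 0.10.2) gave the clusters. Counts were summed per class and library and tested with edgeR 4.0.16 (quasi-likelihood, TMM scaling, filterByExpr, Benjamini-Hochberg adjustment within a class, threshold 0.05). The PS19 pair gives 1 residual degree of freedom, and the lone WT and TG_PS19 libraries are assumed to vary like it. Alternatives were DESeq2 1.42.0, other scalings, filters, clusterings, doublets kept, thinning and the sex-called nuclei. The 10 genes and the lists were chosen with earlier results of these data known. All 10 genes were named, and some of the partner genes that were called. Motif searches used RefSeq windows and GENCODE M21. Python 3.11.15 and R 4.3.3 were used. Results that need certain genes are not reported here.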

Additional observations from a re-analysis of the deposited data

Results flagged for a closer look

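Tap2 was called higher in PS19 than in WT in astrocytes, while both PS19 libraries lay below WT in 3 other classes. Its log2 difference there was -0.33 in fibroblasts, -0.37 in microglia and -0.11 in oligodendrocyte precursors, none of them called by edgeR. The difference between classes was not tested.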

How the results depend on the processing

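DESeq2 called 4 pairs of gene and class in PS19 against WT (11 with edgeR) and 5 in TG_PS19 against PS19 (16 with edgeR), and thinning each nucleus to 1000 UMIs left 8 of the latter, with 4 others not tested. The cause of the DESeq2 difference was not tested. The single call of TG_PS19 against WT became 0 under relative log expression scaling, DESeq2, no filter on low counts, a robust prior, doublets kept, thinning and either set of sex-called nuclei, and 2 under library totals. No call changed direction under the alternatives run. Leaving out a PS19 replicate leaves no residual degrees of freedom, so it gave values without a test: H2-D1 in PS19 against WT ranged from 0.78 to 1.83 in astrocytes, from 1.64 to 2.25 in microglia and from 1.82 to 2.19 in oligodendrocytes. No paired analysis was possible because WT and TG_PS19 have 1 library each.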

Other observations

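Outside the tested classes, a small cluster with T cell markers (2 WT, 17 and 16 PS19 and 3 TG_PS19 nuclei) had 2, 74, 55 and 6 H2-D1 UMIs and 0, 9, 16 and 2 Nlrc5 UMIs in the same order of libraries. A cluster led by Mrc1 and Cd74 (12, 6, 11 and 15 nuclei) had 12, 7, 28 and 9 H2-D1 UMIs. Both have too few nuclei for a comparison between groups.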
